A study of Mus musculus with 39 samples.

Results

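Gabra2, Gabra3, Gabra4, Gabra5, Gabrb1, Gabrb2 and Gabrd encode 7 subunits of the GABA-A receptor, and these genes were taken by name from the 24421 genes of the nuclear RNA-seq tables. Sun1-sfGFP-tagged (sfGFP+) nuclei of the mouse neocortex were isolated by fluorescence-activated nuclei sorting (FANS, sorting by flow cytometry) or by INTACT (capture of tagged nuclei on antibody-coated magnetic beads), and the question was whether the technique changed the measurement. All nuclei came from adult mice that carried the Arc creERT2 allele (TG/WT) and, at the R26 locus, the allele CAG-Sun1-sfGFP-Myc in 1 copy (M/WT) or both (M/M), given tamoxifen and a social interaction test, so FANS and INTACT libraries share every allele, agent and stimulus. The Cre is driven by Arc, so the tag marks cells that had expressed Arc, whichever their type, and each suspension of nuclei was divided between the techniques. RNA was measured in 31 libraries of 3 batches (4 FANS and 4 INTACT in batch 1, 7 and 4 in batch 2, 7 and 5 in batch 3), and open chromatin by ATAC-seq in 3 FANS and 3 INTACT libraries. The 3 RNA batches were taken from different biological sources, and the ATAC-seq libraries are technical replicates of 1 source, so p-values within a batch or between ATAC-seq libraries need not include the variation between animals.

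GABA-A receptors are chloride channels built of 5 subunits around a pore, and they carry most fast inhibition in the cortex. Alpha and beta subunits form the GABA binding sites at their interface, and the alpha subunit also sets how the receptor responds to benzodiazepines. The delta subunit is known from extrasynaptic receptors that carry tonic inhibition, often together with the alpha 4 subunit, and the alpha 5 subunit is likewise found largely outside synapses. Several of these genes lie in clusters that pair alpha and beta subunit genes.

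In RNA-seq, 4205665 to 11028713 reads per library fell on genes, and the members held 147 to 4986 reads per library. Of the total of all rows of a library, 71.3% to 85.1% was in the row for reads that overlapped no counted feature; whether introns were counted was not stated. In batch 1 this share was 79.4% to 81.7% in FANS and 71.3% to 72.7% in INTACT libraries, without overlap, and INTACT libraries there held 8621143 to 11028713 reads on genes against 4853224 to 6066759. The nuclei are labelled as activated neurons, and Slc17a7, Gad1 and Arc, markers of excitatory neurons, inhibitory neurons and recent activity, were detected in every library. Of the 10 astrocyte and the 10 oligodendrocyte markers, 8 and 8 were higher in INTACT in batch 1, 2 and 4 in batch 2, and 0 and 0 in batch 3. Of all genes tested, 18.6%, 0.834% and 1.18% were called higher in batches 1 to 3. No marker of either list was at 0 in all libraries. In bulk nuclei, fewer nuclei of a type and less RNA per nucleus cannot be told apart.

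Gabra2, Gabra4 and Gabrb1 lie within 1191.2 kb of chromosome 5 (all coordinates are of mm10). Gabra2 spans chr5:70958392-71095849 and Gabra4 chr5:71569734-71658308, both on the minus strand, and Gabrb1 spans chr5:71657921-72149572 on the plus strand. In the RefSeq annotation only Cox7b2, a cytochrome c oxidase subunit gene, lies between Gabra2 and Gabra4. Gabra4 and Gabrb1 start head to head and their first exons overlap at chr5:71657921-71658308, so reads there cannot be told apart unless the counting used strand, which was not stated. Gabra3 spans chrX:72432676-72656919 (minus strand), Gabra5 chr7:57407669-57510059 (minus), Gabrb2 chr11:42419707-42632591 (plus) and Gabrd chr4:155384979-155398069 (minus). The start of Gabrd overlaps the annotated end of Cfap74, a gene of the opposite strand, and the same limit applies there.

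The promoter sequences below are shown because the start sites differ in base composition, and an ATAC-seq peak was called near those of every member. They are RefSeq sequences (GRCm38.p6, the assembly of mm10), printed 5′ to 3′ on the strand of the gene from 250 bases before to 30 bases after the start site. For Gabra4 only the 195 bases beyond a Gabrb1 exon of the other strand are shown. Capitals mark GGGCGG (the GC box, bound by Sp1) and TATAAA (the TATA box), searched on both strands, so that CCGCCC and TTTATA are the same letters on the opposite strand; the motifs do not overlap each other here.
Gabra2, chr5:71095820-71096099, minus strand: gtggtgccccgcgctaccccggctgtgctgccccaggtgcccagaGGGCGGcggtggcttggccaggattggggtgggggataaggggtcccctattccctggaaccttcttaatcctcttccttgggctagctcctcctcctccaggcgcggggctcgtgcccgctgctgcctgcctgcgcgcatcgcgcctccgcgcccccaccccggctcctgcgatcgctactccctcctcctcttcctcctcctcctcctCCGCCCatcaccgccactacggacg
Gabra4, chr5:71658364-71658558, minus strand: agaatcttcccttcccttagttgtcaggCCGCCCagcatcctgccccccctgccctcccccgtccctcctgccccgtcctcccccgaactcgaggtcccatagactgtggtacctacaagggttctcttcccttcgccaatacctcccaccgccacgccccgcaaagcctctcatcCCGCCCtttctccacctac
Gabra3, chrX:72656890-72657169, minus strand: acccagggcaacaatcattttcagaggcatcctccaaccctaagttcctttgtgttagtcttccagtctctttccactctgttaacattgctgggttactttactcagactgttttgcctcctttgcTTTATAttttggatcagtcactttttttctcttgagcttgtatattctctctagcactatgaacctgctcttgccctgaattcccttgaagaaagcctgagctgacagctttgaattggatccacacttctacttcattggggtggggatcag
Gabrb2, chr11:42420190-42420469, plus strand: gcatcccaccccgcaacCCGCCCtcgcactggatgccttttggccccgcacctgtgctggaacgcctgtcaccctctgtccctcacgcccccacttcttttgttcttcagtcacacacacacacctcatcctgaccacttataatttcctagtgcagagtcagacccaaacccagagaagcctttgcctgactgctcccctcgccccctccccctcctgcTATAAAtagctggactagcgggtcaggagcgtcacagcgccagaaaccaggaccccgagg
Windows of 300 bases (250 before to 50 after the start) were compared with all 32851 promoter windows of the RefSeq table, in which the median was 7 CG dinucleotides and 52.67% G+C. Promoter windows matched 6 of the 7 members. The Gabra2 window held 25 CG dinucleotides and 2 GC boxes, and the Gabrb1 window at its outer start site also held 25, with no GC box. Gabra4 held 12 and 2 GC boxes, Gabra5 13, and Gabrb2 11 with 1 GC box and 1 TATA box at the start site shown. The Gabra3 windows, of 2 overlapping start sites, held 0 CG dinucleotides and 1 TATAAA match. The table held no window for the third Gabra3 start site, the one nearest the summit of the ATAC-seq peak (334 bases), and the window shown lies almost wholly outside that peak. The 300 bases around the summit held 57.67% G+C. GGGCGG was present in 35.658% and TATAAA in 13.616% of all promoter windows, so neither match is rare.

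Levels of different genes were compared as normalized counts per kilobase of RefSeq exons, within one batch and technique. Gabrb2, a beta subunit of many synaptic receptors, and Gabra4 had the highest levels, Gabrd the next, and Gabrb1 the lowest, in all 6 groups of libraries on this length; the places of Gabrd and Gabrb1 changed with other lengths, as given below. In FANS libraries of batch 1 the medians were 320.7 per kb for Gabra4, 278.4 for Gabrb2, 165.1 for Gabrd, 122.3 for Gabra2, 98.0 for Gabra3, 84.4 for Gabra5 and 23.6 for Gabrb1. Of neighbours in that order, only Gabra4 and Gabrb2 had overlapping ranges, although Gabra4 was above Gabrb2 in 4 of 4 libraries. In INTACT libraries of batch 1 the order began with Gabrb2 at 402.5 per kb, then Gabra4 at 316.7 and Gabrd at 235.7, and the ranges of these 3 did not overlap. Gabra3 at 113.2, Gabra2 at 102.7 and Gabra5 at 100.0 followed with overlapping ranges, and Gabrb1 at 23.0 was last.

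In batches 2 and 3 Gabrb2 came first with both techniques. Its medians per kb were 323.6 (FANS) and 365.3 (INTACT) in batch 2, and 348.1 and 298.6 in batch 3. Gabra4 followed at 308.4 and 314.3 in batch 2, and at 278.0 and 252.7 in batch 3. The ranges of Gabrb2 and Gabra4 overlapped in batch 2 and in FANS libraries of batch 3, and not in INTACT libraries of batch 3. Gabra2, Gabra3 and Gabra5 stayed within 73.3 to 125.8 per kb as medians in these groups, and Gabra5 was the lowest of the alpha subunit genes in each.

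This order depends on the exons counted. The counts were made on a UCSC annotation of mm10, whose table and version were not stated and which was not used here. The RefSeq exons of Gabrb1 sum to 14565 bases, of which 1425 are coding, whereas those of Gabrd sum to 1879 bases with 1350 coding. Per kilobase of GENCODE vM21 exons, Gabrb2 was also first in FANS libraries of batch 1, at a median of 360.4 against 221.5 for Gabra4. Per kilobase of coding length Gabrb2 was first at 1489 against 775.6, and Gabra5 rather than Gabrb1 was last, at 168.9 against 241.6. Gabrd kept its place per kilobase of GENCODE exons in batch 1 but followed Gabra3 in batches 2 and 3, for example at 75.1 against 102.7 in FANS libraries of batch 3. Per kilobase of coding length Gabrd followed Gabra2 in every group and stood between the fourth and the sixth place, at 229.8 against 456.1 in FANS libraries of batch 1. The place of Gabra5 below the other alpha subunit genes likewise passed to Gabra2 in several groups with GENCODE exons. These alternatives were added after seeing the data.

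**Figure D1:**
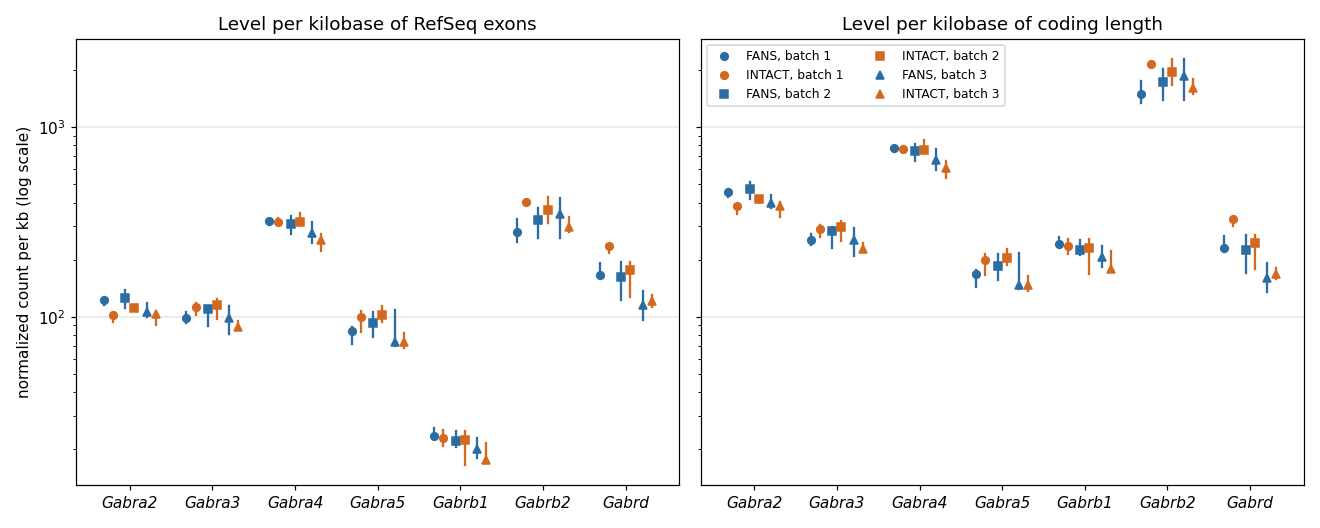
Normalized counts per kilobase (log axis) of the members by technique and batch; markers are medians over libraries and lines run from the lowest to the highest library. Gabrb2 and Gabra4 lead per kilobase of RefSeq exons (left), and Gabrb1 is lowest there but not per kilobase of coding length (right).

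Expressed as a share of the summed level of the 7 genes, Gabrb2 held 24.3% to 28.2% in FANS and 30.9% to 31.9% in INTACT libraries of batch 1, without overlap. Gabra4 held 28.3% to 29.8% and 24.5% to 25.6%. In batch 2 the share of Gabrb2 was 26.1% to 30.3% and 27.8% to 32.4%, and in batch 3 28.8% to 34.4% and 31.1% to 32.6%, so the techniques overlapped in both. Of the summed level of all 19 GABA-A subunit genes in the tables, these 7 held 42.0% to 43.2% in FANS and 38.2% to 39.4% in INTACT libraries of batch 1. Their share was 37.7% to 40.5% and 36.01% to 40.26% in batch 2, and 37.0% to 42.0% and 38.0% to 41.1% in batch 3.

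The technique difference was then tested for each gene within each batch, on log2(normalized count + 1), with limma over all genes and adjustment over all genes tested; all 7 members passed the filter on low values in every batch. In batch 1, 4 members were higher in INTACT (Gabra3, Gabra5, Gabrb2 and Gabrd) and 1 was lower (Gabra2), while Gabra4 and Gabrb1 did not pass. Of all 15114 genes tested in batch 1, 18.6% were called higher and 17.5% lower, so a call in this batch is common. No member reached a 1.5-fold change, and 7.97% of all genes were called with a change of at least 1.5-fold. The ranges of FANS and INTACT libraries did not overlap for 3 members (Gabra2, Gabrb2 and Gabrd), against 33.6% of all genes. No member was called in batch 2 or in batch 3.

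Gabrb2 had the largest difference of the members in batch 1. Its normalized counts were 2256, 2328, 2052 and 2684 in FANS and 3384, 3316, 3312 and 3277 in INTACT libraries. Every INTACT library was above every FANS library, and the 4 INTACT libraries lay closer together (SD 45.1) than the 4 FANS libraries (SD 263.1). The log2 difference was 0.52 (SE 0.06, adjusted p = 8.82e-08, n = 4 and 4), and the gene was called in 15 of 15 alternatives. In batch 2, FANS libraries ran from 2149 over a median of 2663 to 3098, and the INTACT libraries had 3368, 3507, 2560 and 2646, so that 2 of the 4 exceeded all FANS libraries. The log2 difference there was 0.18 (SE 0.09, adjusted p = 0.331), and it ran from 0.10 (without INTACT library 2) to 0.25 (without INTACT library 3) when single libraries were left out, uncalled throughout. In the subset of libraries whose numbers occur with both techniques, the log2 difference was 0.44. The planned fit on these libraries, with a term for replicate number, did not call it (adjusted p = 0.103, limma). Without that term, a choice made after seeing the data, it was called (adjusted p = 0.00831, limma). In batch 3, FANS libraries ran from 2129 over 2865 to 3496, enclosing all 5 INTACT libraries at 2458, 2747, 2298, 2388 and 2505 (log2 difference -0.13, SE 0.08, adjusted p = 0.517). Gabrb2 was called lower there in 1 of 19 alternatives, the fit with a term for replicate number (log2 difference -0.195, adjusted p = 0.00599, limma).

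Gabrd, the delta subunit gene, had 359, 296, 315 and 306 normalized counts in FANS and 408, 445, 443 and 443 in INTACT libraries of batch 1. All 4 INTACT libraries were above all FANS libraries, with a log2 difference of 0.45 (SE 0.07, adjusted p = 2.54e-05, called in 15 of 15 alternatives). In batch 2 the techniques overlapped over most of their range, at 229.5 to 364.0 (median 304.9) in FANS and 365.0, 306.9, 239.8 and 356.4 in INTACT libraries (log2 difference 0.04, SE 0.11, adjusted p = 0.896). In batch 3 the values, on that table's own scale, were 181.7 to 257.9 (median 215.8) and 245.0, 226.2, 217.7, 212.5 and 229.3, and again overlapped (log2 difference 0.07, SE 0.09, adjusted p = 0.797). The tables were scaled separately, so normalized counts are not compared between batches. On a scale common to the batches, CPM of the reads on genes, Gabrd in FANS libraries had 39.7 to 47.9 CPM in batch 1 and 35.4 to 50.95 in batch 3, which overlapped. In INTACT libraries it had 54.75 to 60.87 CPM in batch 1 and 40.49 to 47.81 in batch 3, which did not overlap.

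Gabra2, an alpha subunit gene of synaptic receptors, was the member lower in INTACT in batch 1. Its counts were 628, 609, 582 and 640 in FANS and 519, 524, 520 and 474 in INTACT libraries, so all 4 INTACT libraries lay below all FANS libraries. The log2 difference was -0.27 (SE 0.06, adjusted p = 0.000962) and was called in 15 of 15 alternatives. In batch 2 FANS libraries ran from 564.2 over 636.4 to 698.8 and INTACT libraries had 575.2, 566.8, 559.8 and 548.9, with 2 of the 4 below all FANS libraries (log2 difference -0.17, SE 0.06, adjusted p = 0.165). In batch 3 the ranges were 505.4 to 597.9 (median 537.6) and 455.4 to 542.9 (log2 difference -0.09, SE 0.06, adjusted p = 0.563).

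Gabra3 and Gabra5, 2 further alpha subunit genes, were called in batch 1 with smaller margins. Gabra3 had 409, 389, 379 and 429 in FANS and 471, 418, 481 and 451 in INTACT libraries, and 3 of the 4 INTACT libraries exceeded all FANS libraries (log2 difference 0.18, SE 0.07, adjusted p = 0.0421). The call was lost without FANS library 1, 2 or 3, or INTACT library 1, 3 or 4 (adjusted p = 0.0504 to 0.149). It was also lost with DESeq2 (adjusted p = 0.0614), 75th percentile scaling (0.0552), quantile normalization (0.0572) or a term for replicate number (0.0563). The call thus held in 5 of 15 alternatives. Gabra5 had 246, 238, 200 and 232 in FANS and 284, 298, 232 and 273 in INTACT libraries, and INTACT library 3 lay within the FANS range (log2 difference 0.24, SE 0.09, adjusted p = 0.0364). That call was lost without FANS library 3, or INTACT library 1, 2 or 4 (adjusted p = 0.0829 to 0.142), and with DESeq2 (adjusted p = 0.0594), quantile normalization (0.0617) or no filter on the mean (0.0518), so that it held in 8 of 15 alternatives. In batch 2 Gabra3 ran from 365.0 to 466.6 in FANS (median 449.3) and had 503.7, 503.9, 396.2 and 434.5 in INTACT libraries (adjusted p = 0.566). Gabra5 ran from 218.2 to 296.7 (median 257.1) and had 289.0, 317.2, 262.4 and 282.7 (adjusted p = 0.306). In batch 3 INTACT libraries lay within the FANS range for Gabra3 (351.0 to 386.6 in 328.6 to 461.1) and partly below it for Gabra5 (190.8 to 229.7 against 195.3 to 303.3).

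Gabra4 and Gabrb1, the head-to-head pair, differed little between the techniques in batch 1. Gabra4, whose subunit is often paired with delta, had 1350, 1344, 1284 and 1377 in FANS and 1330, 1331, 1316 and 1387 in INTACT libraries (log2 difference 0.00, SE 0.05, adjusted p = 0.976). Gabrb1, a beta subunit gene, had 358, 331, 330 and 376 against 339, 331, 367 and 305 (log2 difference -0.06, SE 0.08, adjusted p = 0.605). In batch 2 Gabra4 lay at 1149 to 1421 (FANS) and 1297 to 1479 (INTACT), and Gabrb1 at 301.2 to 363.8 and 240.8 to 365.3. In batch 3 Gabra4 ran from 1029 over 1168 to 1324 in FANS and had 1057, 1151, 938.8, 1061 and 1074 in INTACT libraries, mostly within the lower part of the FANS range (log2 difference -0.16, SE 0.06, adjusted p = 0.179). Gabra4 was called lower there in 2 of 19 alternatives. These were the fit without FANS library 4 (adjusted p = 0.0489, limma) and that with a term for replicate number (adjusted p = 0.0422, limma).

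**Figure D2:**
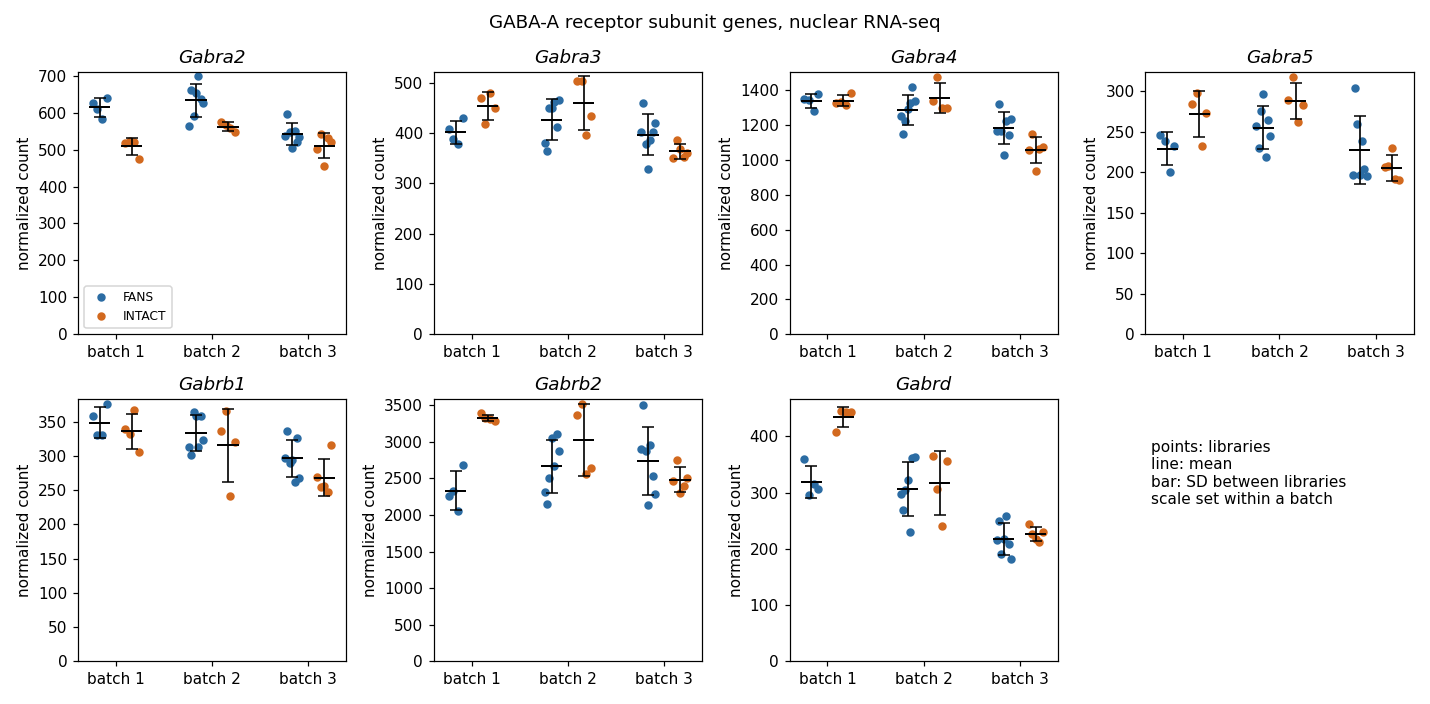
Normalized counts of the 7 genes (vertical axes from 0) in each RNA-seq library by batch and technique; points are libraries, horizontal lines the means and bars the SD between libraries. In batch 1 the INTACT libraries of Gabrb2 (3277 to 3384) and Gabrd (408.3 to 445.1) lie above all FANS libraries and those of Gabra2 (474.0 to 523.9) below them, while all ranges overlap in batches 2 and 3.

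The counts of 0 in batches 2 and 3 were read with their background. In batch 2, 0.834% of 14876 genes were called higher, 0.309% lower and 0.128% at 1.5-fold, and the libraries did not overlap for 2.99%. In batch 3 the shares were 1.18%, 0.519%, 0.360% and 1.59% of 14440 genes. At an unadjusted p under 0.05, 2 members passed in batch 2 (Gabra2 and Gabra5) and 1 in batch 3 (Gabra4) with limma, beside 2268 of all 14876 and 1985 of all 14440 genes. On the recovered reads edgeR and DESeq2 called 0 in both batches after adjustment. In batch 3, 6 of 7 log2 differences were negative, where the median over all genes was -0.0044. In batches 1 and 2, 5 were positive and 2 negative in each.

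Differences of the technique effect between batches were tested directly. Between batches 1 and 3 the effect differed for 3 members, by a log2 of 0.65 for Gabrb2 (SE 0.14, adjusted p = 0.000478), 0.38 for Gabra5 (SE 0.14, adjusted p = 0.0477) and 0.30 for Gabra3 (SE 0.11, adjusted p = 0.0431), all larger in batch 1. For Gabrd the difference was 0.38 (SE 0.15, adjusted p = 0.0532; 0.0497 with a pseudocount of 5). Of all 14332 genes tested, 23.3% differed between batches 1 and 3, so such a difference was frequent. Between batches 1 and 2, 6.30% of genes differed and none of the members did by limma (2 members and 3016 of all genes at an unadjusted p under 0.05), with values of 0.41 for Gabrd (adjusted p = 0.0983) and 0.34 for Gabrb2 (adjusted p = 0.147). Between batches 2 and 3, 0.00% of genes were called by limma (1831 genes and 4 members at an unadjusted p under 0.05). No other tool was run on these differences, and each pair of contrasts shares a batch. The paper calls batch 1 its batch of high RNA integrity and gives lower values for batches 2 and 3. RNA integrity and batch therefore cannot be told apart here.

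**Figure D3:**
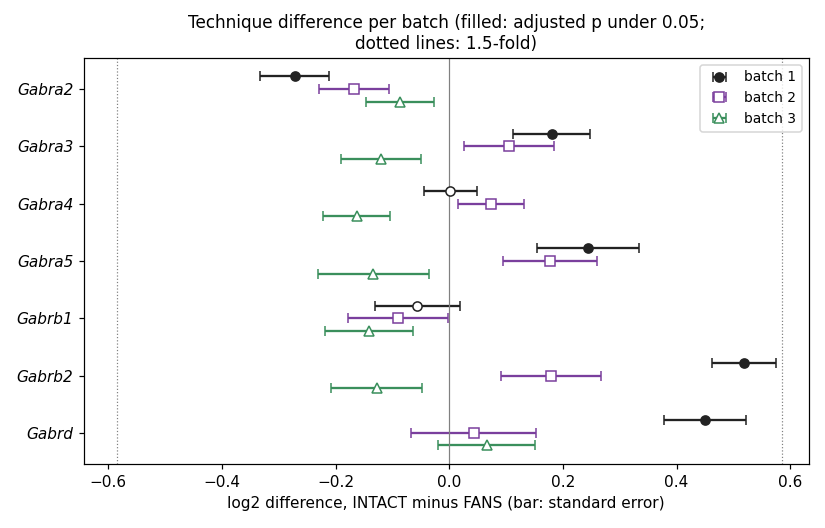
Log2 difference (INTACT minus FANS) of each gene in batches 1 to 3 with its standard error; filled markers have an adjusted p under 0.05 and dotted lines mark a 1.5-fold change. All filled markers are of batch 1, with Gabrb2 at 0.52 and Gabrd at 0.45 to the right and Gabra2 at -0.27 to the left, and no marker reaches 1.5-fold.

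In batch 1 other measures moved with the technique beside these genes. The share of reads that overlapped no counted feature was lower in INTACT, as given above. Summed counts of the 10 astrocyte markers were 6413 to 7216 in FANS and 8143 to 8327 in INTACT libraries, and those of the 10 oligodendrocyte markers 6424 to 8036 and 10330 to 10900. Of 9 inhibitory neuron markers tested, 5 were higher and 1 lower (sum of all 10 at 441.5 to 553.0 against 571.8 to 633.3), and of 10 excitatory neuron markers 2 were higher and 3 lower (11370 to 11520 against 10660 to 11210). Of 6 immediate early genes, which include Arc, the gene whose allele drives the Cre, 3 were higher (sum 3526 to 4040 against 4094 to 4238). Microglia marker sums overlapped (270.1 to 368.3 against 290.6 to 321.2; 1 of 4 tested was lower), as did vascular ones (2.45 to 21.86 against 12.98 to 29.05), where the 1 marker tested was higher. Of all genes in batch 1, 18.6% were called higher and 17.5% lower. The part of these measures in the differences of the GABA-A genes was not tested.

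Beside the members, 36 genes of GABA synthesis, transport, receptor anchoring and related inhibitory receptors were followed, of which 35 passed the filter in each batch. In batch 1, 12 were higher and 7 lower in INTACT, with a median log2 difference of 0.15 against 0.01 over all genes and 0.18 over the members. The shares of all genes were 18.6% higher and 17.5% lower, so the count of lower genes in the list was near its background. Clptm1, which retains GABA-A receptors in the endoplasmic reticulum, rose from 374.2 ± 28.0 to 604.0 ± 22.8 normalized counts (SD, n = 4 and 4; log2 difference 0.69, adjusted p = 1.38e-08). Glrb, the beta subunit of the glycine receptor, rose from 1075 ± 92.8 to 1616 ± 36.6 (log2 difference 0.59, adjusted p = 7.96e-09). Slc32a1, the vesicular GABA transporter, had the lowest level of the genes named and rose from 20.8 ± 1.9 to 34.1 ± 3.8 (log2 difference 0.68, adjusted p = 0.0153). These 3 were the ones that reached 1.5-fold.

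Gabbr1, a subunit of the metabotropic GABA-B receptor, rose from 2268 ± 45.8 to 3024 ± 82.2 (log2 difference 0.41, adjusted p = 3.14e-08). Iqsec3, an exchange factor of inhibitory synapses that binds gephyrin, fell from 1067 ± 56.7 to 770.0 ± 40.8 (log2 difference -0.47, adjusted p = 3.68e-07). In batch 2 none of the 35 genes was called. In batch 3 only Hap1, a trafficking protein of GABA-A receptors, was called and rose from 274.4 ± 30.9 (n = 7) to 375.6 ± 29.3 (n = 5; log2 difference 0.46, adjusted p = 0.00107). It was also called in batch 1 (703.2 ± 90.4 to 907.8 ± 65.9, log2 difference 0.37, adjusted p = 0.000232). Of the 5 genes named here as higher in batch 1, Hap1 was thus higher in batch 3 as well, and the other 4 had log2 differences in batch 3 of -0.20 (Clptm1), -0.19 (Glrb), -0.37 (Slc32a1) and -0.07 (Gabbr1), none of them called. Of the 12 other GABA-A subunit genes, 7, 7 and 5 passed the filter in batches 1 to 3, and in batch 1 4 were higher and 1 lower, beside the same 18.6% and 17.5% of all genes.

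Genes whose deviations from the group means were most like those of each member were sought over the 31 libraries and 9610 genes, as a description, since the points share library depth and scaling. Gabrb2 had the closest, Scn2a1 (a neuronal sodium channel; Pearson's r = 0.97) and Sv2b (a synaptic vesicle protein; 0.963). Gabra4 was closest to Zbtb38 (0.853), Gabra3 to Slc7a14 (0.824), Gabra5 to Tmem222 (0.808), Gabrd to Tomm22 (a mitochondrial import receptor; 0.77), Gabrb1 to Clstn3 (0.712) and Gabra2 to Reln (0.701). Between members, r ran from -0.05 (Gabra2 and Gabrd) to 0.768 (Gabra4 and Gabrb2).

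ATAC-seq cuts open chromatin with a transposase, and its peaks were deposited per library with the fold enrichment of the summit over local background. A peak within 1500 bases of an annotated start site was present at all 7 genes in all 6 libraries, as at 56.8% of 26087 annotated genes. The highest fold enrichment there was 11.5, 11.2 and 11.9 in FANS and 9.97, 8.84 and 12.2 in INTACT libraries for Gabra2 (exact permutation p = 0.4). For Gabra3, whose peak at chrX:72655246-72656892 lies over the inner start sites and ends short of the outer one, it was 10.4, 10.9 and 9.01 against 9.82, 8.90 and 11.1 (exact p = 0.9). For Gabra5 it was 10.6, 10.8 and 11.7 against 11.0, 6.77 and 11.3 (exact p = 0.7). The techniques overlapped at each of these.

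Gabra4 and Gabrb1 share a region at chr5:71656421-71658462 that covers both start sites, at 8.15, 8.99 and 7.51 in FANS and 8.27, 7.23 and 7.99 in INTACT libraries (exact p = 0.5). The value of Gabrb1 within 1500 bases comes from another region, whose summit lies 1217 bases after its inner start site, at 13.3, 13.7 and 12.2 against 10.4, 9.66 and 13.2 (exact p = 0.2). Gabrb2 had 6.68, 5.87 and 6.61 in FANS and 4.63, 5.34 and 5.81 in INTACT libraries, and every FANS library was above every INTACT library (exact p = 0.1, the smallest that 3 against 3 libraries allow). Gabrd had the lowest values, 5.07, 5.01 and 4.08 against 5.05, 3.49 and 4.62 (exact p = 0.6).

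So 1 of 7 members had all FANS above all INTACT libraries, whereas 54.3% of the 14807 promoters with a peak in all 6 libraries did. Without INTACT library 3 there were 3 such members (Gabra2, Gabrb1 and Gabrb2), and without FANS library 3 there were 2 (Gabrb1 and Gabrb2). The share of all promoters is not given for these subsets, and fewer libraries separate more easily, so these counts are not read as a result about the members. Over the 14807 promoters the median log2 ratio of INTACT to FANS was -0.23, and for Gabrb2 it was -0.28. Relative to the median promoter of its library, Gabrb2 overlapped, at 0.403 to 0.461 in FANS and 0.395 to 0.491 in INTACT. On that scale Gabra3 alone was separate and higher in INTACT, at 0.616 to 0.744 against 0.818 to 0.841, as were 29.9% of promoters and 38.1% of the 512 on the X chromosome. Gabra3 is the X-linked member, and the X chromosome held 2.101% to 2.159% of all peaks in FANS and 2.952% to 2.984% in INTACT libraries, without overlap. The part of this chromosome-wide difference in the Gabra3 values was not tested. Among the 14807 promoters with a peak in all 6 libraries, the mean log2 fold enrichment of Gabrb1 stood at the 42.6th percentile and that of Gabra2 at the 35.7th. Gabrb2 stood at the 6.69th and Gabrd at the 1.99th. With peaks within 500 bases of its start sites, Gabrb1 stood at the 18.7th.

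Over gene bodies and start sites the 6 libraries gave 131 separate regions, of which 65 had a peak in all 6 libraries and 20 in a single one. Of the 65, 56 were intronic, 8 lay at start sites and 1 was exonic. In 5 of the 7 genes the strongest of these was intronic and exceeded the start site in every library, as in 11.3% of the 14881 genes with a start site region in all 6. A long gene has more regions to take the strongest from: among the 4016 such genes of at least 50 kb the share was 32.1%, and 4 of the 6 members of that length met it. The strongest was in Gabra2 at chr5:71078510-71079250, 16771 bases into the gene, with 20.9, 20.1 and 22.4-fold enrichment in FANS and 20.3, 15.1 and 19.8 in INTACT libraries. A second in Gabra2, at chr5:70995571-70996656, had 20.1, 19.1 and 18.3 against 17.8, 15.6 and 17.8. In Gabrb1 the strongest lay 287258 bases from the nearest start site, at chr5:71986642-71987631, where FANS libraries had 17.98 to 19.36 and INTACT libraries 16.65 to 18.41.

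Gabrb2 and Gabrd, with the weakest start sites, also had stronger regions inside the gene. In Gabrb2 the region at chr11:42528126-42529313 had 12.6 to 13.4 in FANS and 12.4 to 13.6 in INTACT libraries, 1.97 to 2.93 times the start site in the same library. In Gabrd the region at chr4:155395302-155396121, 2387 bases into the gene and also within an exon of a predicted Cfap74 transcript, had 14.5 to 15.8 and 11.7 to 13.8, or 2.59 to 3.57 times the start site. Gabra5 held a region of 11.1 to 13.9 in FANS and 11.0 to 14.7 in INTACT libraries at chr7:57471179-57471953. In Gabra4 the strongest intronic region exceeded the start site in 4 of 6 libraries, and in Gabra3 the start site itself was strongest.

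**Figure D4:**
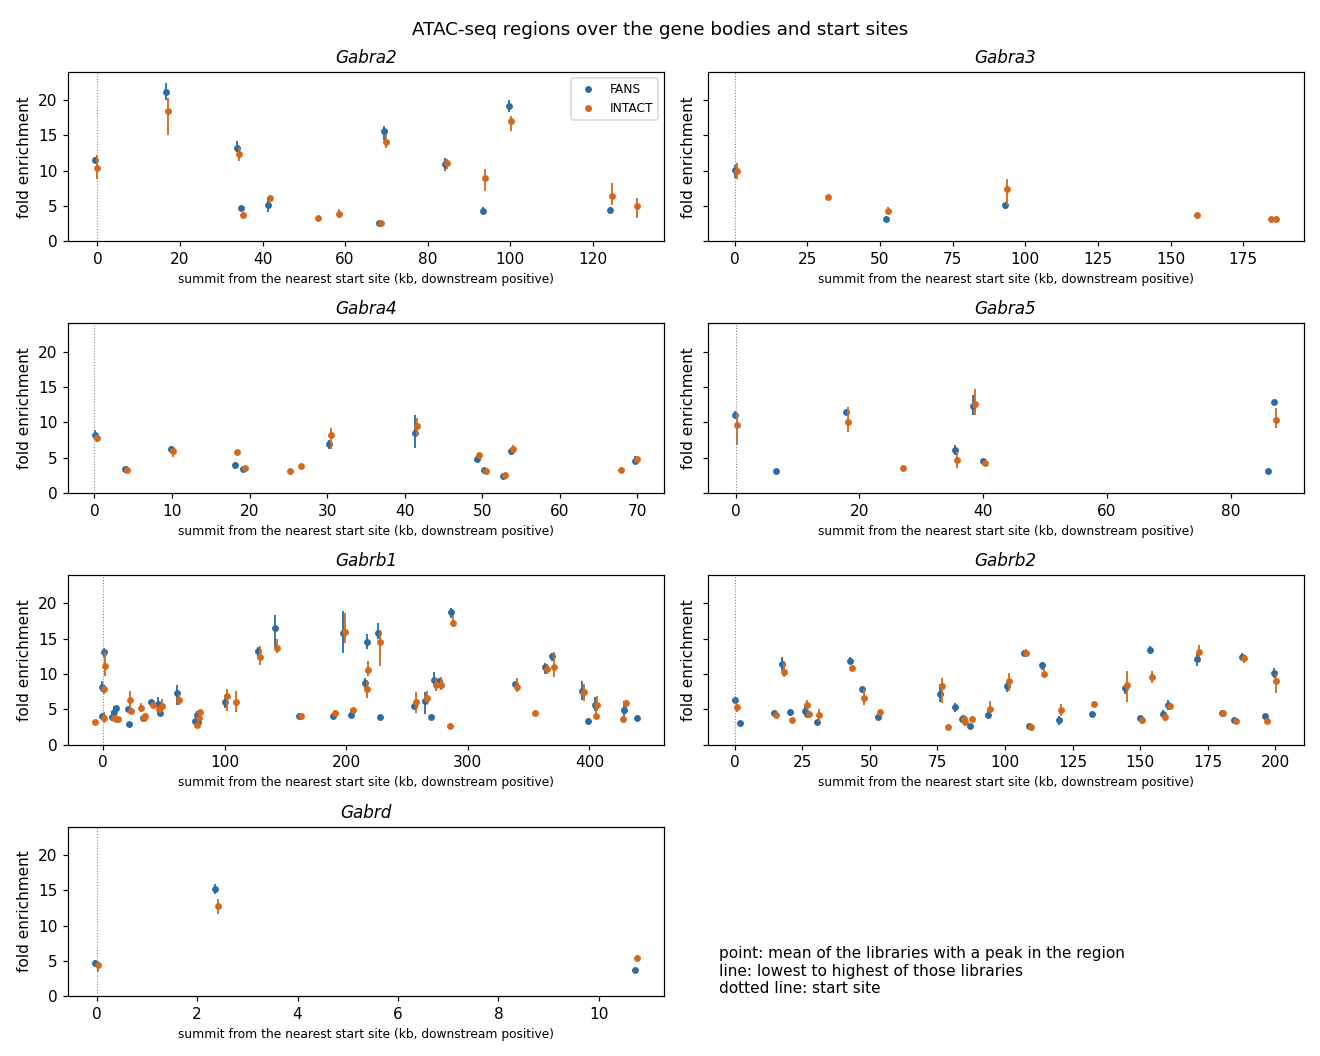
Fold enrichment of every ATAC-seq region over the 7 genes against the distance of its summit from the nearest start site (kb); points are means of the libraries of a technique with a peak in the region and lines run from the lowest to the highest of them. The highest region lies 16.77 kb into Gabra2, and in Gabrd a region at 2.39 kb stands above the start site.

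Sequences around summits are shown for the strongest Gabra2 region, for a Gabra2 region with peaks in the 3 INTACT libraries and in no FANS library, and for intronic regions of Gabrb1 and Gabrb2, because each holds TGANTCA, the motif of Fos and Jun dimers (AP-1). They are 300 bases of the plus strand of mm10, from 150 before to 149 after the highest summit, with the motif in capitals; both strands were searched, and the motif reads alike on both.
Gabra2 strongest region, chr5:71078928-71079227: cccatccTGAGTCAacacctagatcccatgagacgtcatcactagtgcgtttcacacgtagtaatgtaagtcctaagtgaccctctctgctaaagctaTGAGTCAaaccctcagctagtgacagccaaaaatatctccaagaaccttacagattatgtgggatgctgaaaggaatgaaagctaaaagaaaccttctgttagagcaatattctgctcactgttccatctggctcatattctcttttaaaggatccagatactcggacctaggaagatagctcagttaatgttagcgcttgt
Gabra2 region of INTACT libraries, chr5:70965187-70965486: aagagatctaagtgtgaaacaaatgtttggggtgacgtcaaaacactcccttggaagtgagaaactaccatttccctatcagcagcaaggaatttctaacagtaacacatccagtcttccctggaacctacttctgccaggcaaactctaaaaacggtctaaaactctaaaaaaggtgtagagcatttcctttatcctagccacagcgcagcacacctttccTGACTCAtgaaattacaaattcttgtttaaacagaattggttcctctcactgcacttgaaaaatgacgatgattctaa
Gabrb1 intronic region, chr5:71761215-71761514: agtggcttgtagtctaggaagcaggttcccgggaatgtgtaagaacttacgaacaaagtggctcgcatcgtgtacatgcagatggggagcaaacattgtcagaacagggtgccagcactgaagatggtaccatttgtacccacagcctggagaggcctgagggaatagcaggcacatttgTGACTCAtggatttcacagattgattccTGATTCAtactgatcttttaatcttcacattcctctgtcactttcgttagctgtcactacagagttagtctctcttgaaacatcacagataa
Gabrb2 intronic region, chr11:42535303-42535602: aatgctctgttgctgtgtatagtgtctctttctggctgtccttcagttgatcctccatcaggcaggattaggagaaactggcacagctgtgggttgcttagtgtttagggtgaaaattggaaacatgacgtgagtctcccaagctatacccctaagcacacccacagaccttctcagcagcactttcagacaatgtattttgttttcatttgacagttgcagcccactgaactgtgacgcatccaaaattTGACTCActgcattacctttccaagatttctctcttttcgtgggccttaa
TGANTCA occurred in 6 of the 65 windows of regions shared by all 6 libraries, or 9.231%, against 18.717% of the 76555 windows of such regions in the genome. The Gabrb1 region shown had 8.12, 8.42 and 5.61-fold enrichment in FANS and 5.60, 6.18 and 7.18 in INTACT libraries, and the Gabrb2 region 11.5, 11.7 and 10.6 against 9.75, 9.44 and 10.8.

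The number of peaks per gene body ran from 2 to 3 in Gabrd to 34 to 38 in Gabrb1, and overlapped between the techniques for 6 of the 7 genes. Gabra2 had 9, 10 and 9 peaks in FANS and 12, 12 and 12 in INTACT libraries (exact permutation p = 0.1, the smallest possible). A separation in this direction was shown by 2.72% of 16341 genes with peaks, a share not matched for gene length or number of peaks. Among peaks with a −log10 q-value of at least 5 the numbers of Gabra2 were 9, 9 and 9 against 9, 11 and 10 and overlapped (exact p = 0.4). The length they covered was 4906, 5505 and 5183 bases in FANS and 7171, 7190 and 6723 in INTACT libraries, and stayed separate at the stricter setting (4906 to 5227 against 6250 to 6917). Of the 131 regions, 3 were found in all INTACT and in no FANS libraries, as were 1.40% of the 170178 regions of the genome, and 0 in all FANS and in no INTACT libraries, against 5.01%. Of these 3, 2 lay in Gabra2, at chr5:70965232-70965594 (6.11, 5.37 and 3.38-fold) and chr5:71037209-71037655 (3.82, 4.57 and 3.38-fold). The third, in Gabrb1 at chr5:72103926-72104488, had 3.56, 4.75 and 3.69-fold enrichment. All 3 were weak beside the strongest regions of these genes, and a missing peak says only that none was called.

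Covered length was separate and larger in INTACT for Gabra2, Gabra3 (1329, 1446 and 1992 against 2044, 2044 and 2837 bases) and Gabrb1 (17056, 17799 and 17318 against 20340, 20122 and 18745). This is 3 of 7 genes (exact p = 0.1 for each), against 12.1% of the 16341 genes with peaks, a share not matched for gene length. For Gabra3 the share to read it against is that of the 544 X-linked genes, 30.1%. Gabra5 was separate in the other direction, at 3918, 4148 and 4301 in FANS and 2451, 3654 and 3494 in INTACT libraries, as were 33.8% of genes (exact p = 0.1). Gabrb2 overlapped at 13020 to 15095 and 14946 to 18235 bases. Summed over the members, 93, 99 and 91 peaks in FANS and 92, 93 and 110 in INTACT libraries covered 45825, 50367 and 48615 and 55371, 53824 and 57279 bases (exact p = 0.7 and p = 0.1). The mean difference of 4.0 peaks, INTACT minus FANS, became -0.667 at a −log10 q-value of at least 5 and -1.833 without INTACT library 3. INTACT lists held fewer peaks in the whole genome except that INTACT library 3 exceeded FANS library 1 (99514 to 123895 against 123596 to 130088), of larger median width (447 to 503 against 433 to 443 bases). Over all genes with a body peak in all 6 libraries the median log2 ratio of covered length was -0.13. The part of peak width in the members' values was not tested.

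**Figure D5:**
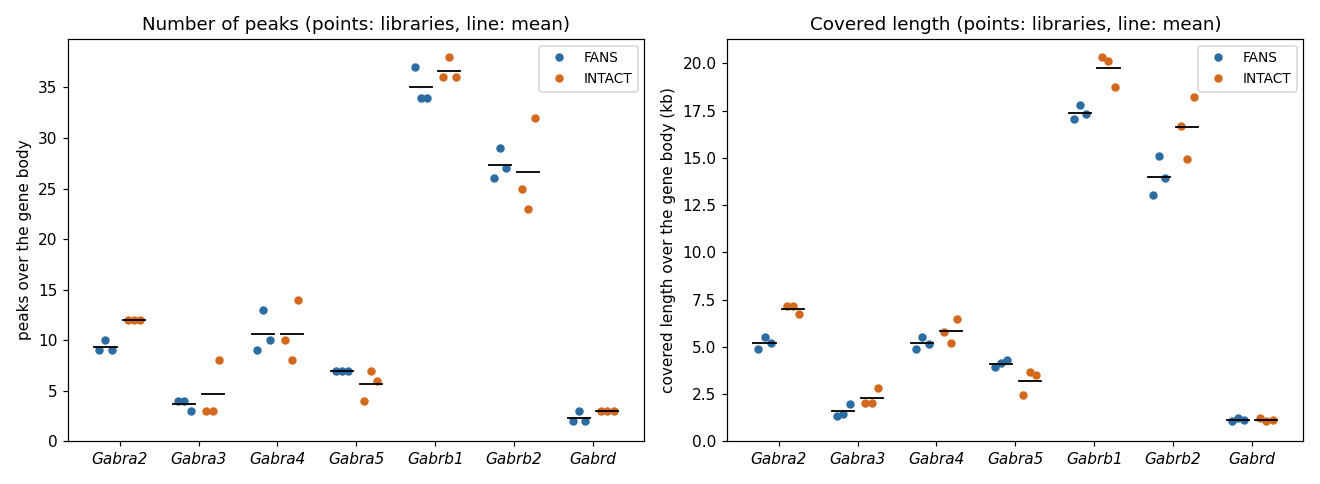
Number of ATAC-seq peaks (left) and covered length in kb (right) over each gene body; points are libraries and lines the means of 3. The INTACT libraries of Gabra2 have 12 peaks each against 9 to 10 in FANS, a separation lost among peaks with a −log10 q-value of at least 5, and Gabra5 covers less in INTACT.

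The interval on chromosome 5 from the end of Gabra2 to the end of Gabrb1 held 69, 73 and 69 peaks in FANS and 76, 76 and 81 in INTACT libraries, without a comparison to other intervals. At a −log10 q-value of at least 5, an alternative added after seeing the data, the numbers were 63, 66 and 66 against 66, 68 and 74, so the ranges met. Per 100 kb of gene body, mean peak density ran from 1.64 in FANS and 2.08 in INTACT libraries for Gabra3 to 17.8 and 22.9 for Gabrd, the shortest gene. Gabra4 had 12.0 and 12.0, Gabrb2 12.8 and 12.5, and Gabrb1, whose body is the longest at 491.7 kb, 7.12 and 7.46.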

How the data were processed

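Nuclear RNA and open chromatin of FANS- and INTACT-isolated sfGFP+ nuclei were analysed from the deposited tables. For RNA-seq (a ribosomal RNA depletion kit with molecular identifiers), the authors aligned reads to mm10 with UCSC annotations by STAR, removed duplicates by identifier, assigned the uniquely mapped ones to genes with HTSeq, and divided the counts by DESeq size factors within each table; the deposited signal is this normalized count, without gene length. Values were whole multiples of 1 read (within 0.1) for at least 99.9886% of nonzero values per library, so reads could be recovered. For ATAC-seq, the authors called peaks per library with MACS2 after Bowtie2 alignment and duplicate removal; deposited columns are the fold enrichment (a ratio), the −log10 p-value and q-value, and a score; read shift and caller settings are not given in the sources used here.

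Groups were taken from sample titles. FANS library 3 and INTACT library 5 of batch 2 are not analysed here. Technique was tested within each batch with limma 3.58.1 (R 4.3.3) on log2(normalized count + 1), for genes with a batch mean of at least 5, at a Benjamini-Hochberg adjusted p of 0.05, with 1.5-fold as a stricter call. The fit was also run on simulated data with 200 changed genes, whose outcome is not given here and is not used as support. Alternatives were edgeR 4.0.16 and DESeq2 1.42.0 on the recovered reads, other scalings, pseudocounts, filters and each library left out. Exon and start site positions are from RefSeq. Peaks were compared by exact two-sided permutation tests (scipy 1.17.1), with an overlap of at least 1 base and 1500 bases on each side of start sites. The members and gene lists were chosen with earlier results of these data known. The rule for named genes was all members and, of the GABA list, genes at 1.5-fold in any batch and up to 4 per batch with the smallest adjusted p; values of the other GABA-A subunit genes are not reported here. The stated errors cover the spread between libraries only.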

Additional observations from a re-analysis of the deposited data

Results flagged for a closer look

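In 2 of the 42 groups of libraries examined, 1 library stood apart from the rest of its group by Dixon's criterion, which chance alone meets in about 1 of 20 groups. INTACT library 4 of batch 1 had 473.96 normalized counts of Gabra2, below the other 3 at 519 to 524. INTACT library 1 of batch 1 had 408.34 of Gabrd, below the other 3 at 443 to 445. Both genes were called in batch 1 without these libraries as well.

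The technique effect differed between batches 1 and 3 by a direct test for Gabra3 (log2 0.3003, adjusted p = 0.0431), Gabra5 (0.3774, adjusted p = 0.0477) and Gabrb2 (0.6463, adjusted p = 0.000478) with limma. For each of the 3, the log2 difference was positive in batch 1 and negative in batch 3.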

How the results depend on the processing

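In batch 1 the number of members higher in INTACT was 4, and 2 with DESeq2 and with quantile normalization; leaving out single libraries gave 2 to 4, with 2 without FANS library 3, INTACT library 1 or INTACT library 4, the genes lost being Gabra3 and Gabra5. Gabra2, Gabrb2 and Gabrd kept their calls in all 15 alternatives of batch 1. For Gabra4 in batch 1 the log2 difference of 0.0023 became -0.0063 with 75th percentile scaling and ran from -0.0177 to 0.016 when libraries were left out. In batch 2, Gabrb1 turned from -0.0897 to 0.0643 in the libraries that share replicate numbers, with or without the replicate block, and ran from -0.1657 to 0.0341 with single libraries left out; Gabrd (0.0428) ran from -0.0313 to 0.1702.

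Whether replicate numbers pair the libraries was not stated. Deviations of same-numbered libraries correlated at -0.21 to 0.28, which cannot settle it with so few pairs per batch. With a replicate block, Gabra3 lost its call in batch 1 (adjusted p = 0.0563), and 2 members were lower in batch 3 (Gabra4, -0.1599, adjusted p = 0.0422; Gabrb2, -0.1953, adjusted p = 0.00599, limma) against 0 without it, and all-gene calls went to 554 higher and 554 lower from 171 and 75. In batch 2 the block left 4 and 0 genes from 124 and 46, and Gabrb2 was not called (0.4432, adjusted p = 0.103, limma). In the same libraries without the block term (chosen after seeing the data), 1 member was called higher, Gabrb2 (0.4432, adjusted p = 0.00831, limma). All-gene calls there were 173 and 20. Leaving out libraries gave 0 to 1 members lower in batch 3, the 1 being Gabra4 without FANS library 4 (adjusted p = 0.0489).

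All-gene counts in batch 2 were 241 and 99 with DESeq2 and 64 and 21 without a filter, and ran from 17 to 259 higher and 4 to 74 lower with single libraries left out (17 and 4 without INTACT library 1). In batch 3 the libraries of the block without its term gave 327 and 254, and left-out libraries 65 to 299 higher and 36 to 187 lower. In batch 1 these counts stayed within 1.5 times of 2817 and 2641.

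In FANS libraries of batch 1 the mean share of Gabra4 was 29.06%, and 28.33%, 22.44% and 21.23% with the longest transcript, GENCODE exons and coding length. With the last pair, Gabrb1 moved from 2.18% to 2.565% and 6.728%, Gabrb2 from 25.74% to 37.22% and 41.53%, Gabrd from 15.47% to 11.32% and 6.512%, and Gabra5 from 7.489% to 7.839% and 4.525%. The number of members with all FANS above all INTACT libraries at the start site was 1. It was 1 to 3 with libraries left out, without the share of all promoters for those subsets. The summed difference in body peaks of 4.0 turned to -0.667 at the stricter q-value, and ran from -1.833 (without INTACT library 3) to 7.167 with libraries left out. The members held 147 to 4986 reads per library, and the SE did not follow depth alone (batch 2: 0.088 for Gabrb2, 0.083 for Gabra5). Where no cause is named, the cause was not tested.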
